A study of Mus musculus with 6 samples.

Results

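The genes described here encode the cell-surface and secreted cues first known from axon guidance: ephrins and their Eph receptors, semaphorins and their plexin receptors, netrins and Unc5 receptors, and Slit ligands and Robo receptors. Members were taken from the count table by symbol, as every Epha, Ephb, Efna, Efnb, Slit, Robo or Ntn gene followed by a number, every symbol that begins with Sema or Plxn, and Unc5a to Unc5d, without antisense genes. This gave 66 of the 56941 genes in the table. RNA had been sequenced from primary endothelial cells that were isolated from mouse lungs with magnetic beads, freed of dead cells and maintained in a medium with serum and endothelial growth supplement. Sample titles also carry the abbreviation PAECs, which the labels do not spell out. The libraries titled EC-KO (n = 3) carry the genotype label FUNDC1-KO, a knockout in endothelial cells by the series' title. The libraries titled FL (n = 3) carry FUNDC1-FLOX, the floxed allele of the same gene. The labels used here name no Cre driver, no age or sex, no bead antibody and no number of animals or days in culture, and nothing in them says that replicates came from separate animals. The p-values below therefore measure the spread between these libraries, which may be technical.

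These families pass signals between neighbouring cells that attract, repel or sort them, mostly by reshaping actin and adhesion. Ephrins are tethered to the membrane, class A by a lipid anchor and class B by a transmembrane segment, and they signal in both directions when they meet Eph receptor tyrosine kinases on another cell. Class 3 semaphorins are secreted and usually need a neuropilin beside a plexin, while the other vertebrate classes are membrane-bound. Netrins are secreted relatives of laminin that bind Unc5, Dcc and neogenin receptors, and Slits are secreted ligands of Robo receptors. In blood vessels ephrin-B2 and EphB4 are known as arterial and venous markers in the mouse embryo, and class 3 semaphorins, plexin-D1, Unc5b and Robo4 are known regulators of vessel growth.

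Depth was 29723104 to 33474398 gene counts per EC-KO library and 26658998 to 34306962 per FL library. Fundc1, the targeted gene, was at 14.1, 18.2 and 12.8 CPM in EC-KO 1, 2 and 3, against 25.1, 32.0 and 30.7 CPM in FL 1, 2 and 3, so it was lower in every EC-KO library and detected in all of them (log2 fold change -0.96 ± 0.19 SE, adjusted p = 0.00796). Levels are in CPM, counts divided by library size after TMM scaling. Endothelial identity genes were abundant in both groups but lower in EC-KO: a list of 30 pan-endothelial markers summed to 6313 to 11921 CPM in EC-KO and 14778 to 20566 CPM in FL, with 14 members called lower and 0 called higher (median log2 fold change -0.90). Epithelial markers summed to 11875 to 17673 CPM in EC-KO and 1946 to 4557 CPM in FL, with 17 of 18 called higher. Fibroblast markers summed to 2537 to 7538 CPM in EC-KO and 1074 to 1449 CPM in FL, with 9 of 14 called higher. Macrophage and monocyte markers summed to 1087 to 1478 CPM in EC-KO and 5647 to 8044 CPM in FL, with all 15 called lower. Neutrophil and mast cell markers summed to 484 to 558 CPM in EC-KO and 1498 to 2881 CPM in FL, with 5 of 8 called lower. Smooth muscle and pericyte markers summed to 304 to 448 CPM in EC-KO and 631 to 883 CPM in FL, with 8 of 11 called lower, and no marker on these lists was at 0 counts in every library. Members of these families are expressed in several of these cell types. The part of cell composition in the differences below was not tested. In bulk RNA fewer cells of a type and less RNA per cell cannot be told apart.

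One knockout library stood apart. EC-KO 2 had the pan-endothelial list at -0.46 relative to the FL mean on the log2 scale, against -1.34 in EC-KO 1 and -1.38 in EC-KO 3, and it also had the highest epithelial (2.88) and fibroblast (2.36) means. Its lymphocyte markers were the lowest, at -0.50, against 0.51 in EC-KO 1 and 0.20 in EC-KO 3. Among the 59 guidance genes tested, EC-KO 2 had the highest level of the knockout libraries in 52 (88.1%), compared with 44.1% of all 18562 genes tested. It was highest in 10 of the 12 members called lower and in 13 of the 14 called higher. The FL libraries differed as well. On the same scale FL 1 had the highest epithelial mean of FL, at 0.57 against -0.35 in FL 2 and -0.22 in FL 3. Its neutrophil and mast cell mean was the lowest of FL, at -0.57 against 0.33 in FL 2 and 0.23 in FL 3.

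Of the 66 members, 59 had enough counts to be tested, and 26 of these differed between EC-KO and FL: 12 were lower and 14 higher. Calls were made with edgeR's quasi-likelihood test over all genes at an adjusted p under 0.05. That is 44.1% of the members tested, where 27.1% of all tested genes were called (13.5% lower and 13.5% higher). The median log2 fold change was 0.33 for the members and 0.03 for all tested genes. The members' median was 0.14 without EC-KO 2 and 0.055 among the 55 members that passed a filter of 1 CPM in 3 libraries. The groups did not overlap in 36 of the 59 members tested, beside 45.4% of all tested genes. They overlapped in none of the 26 called members, which the call itself favours, and the share among all called genes is not given.

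**Figure D1:**
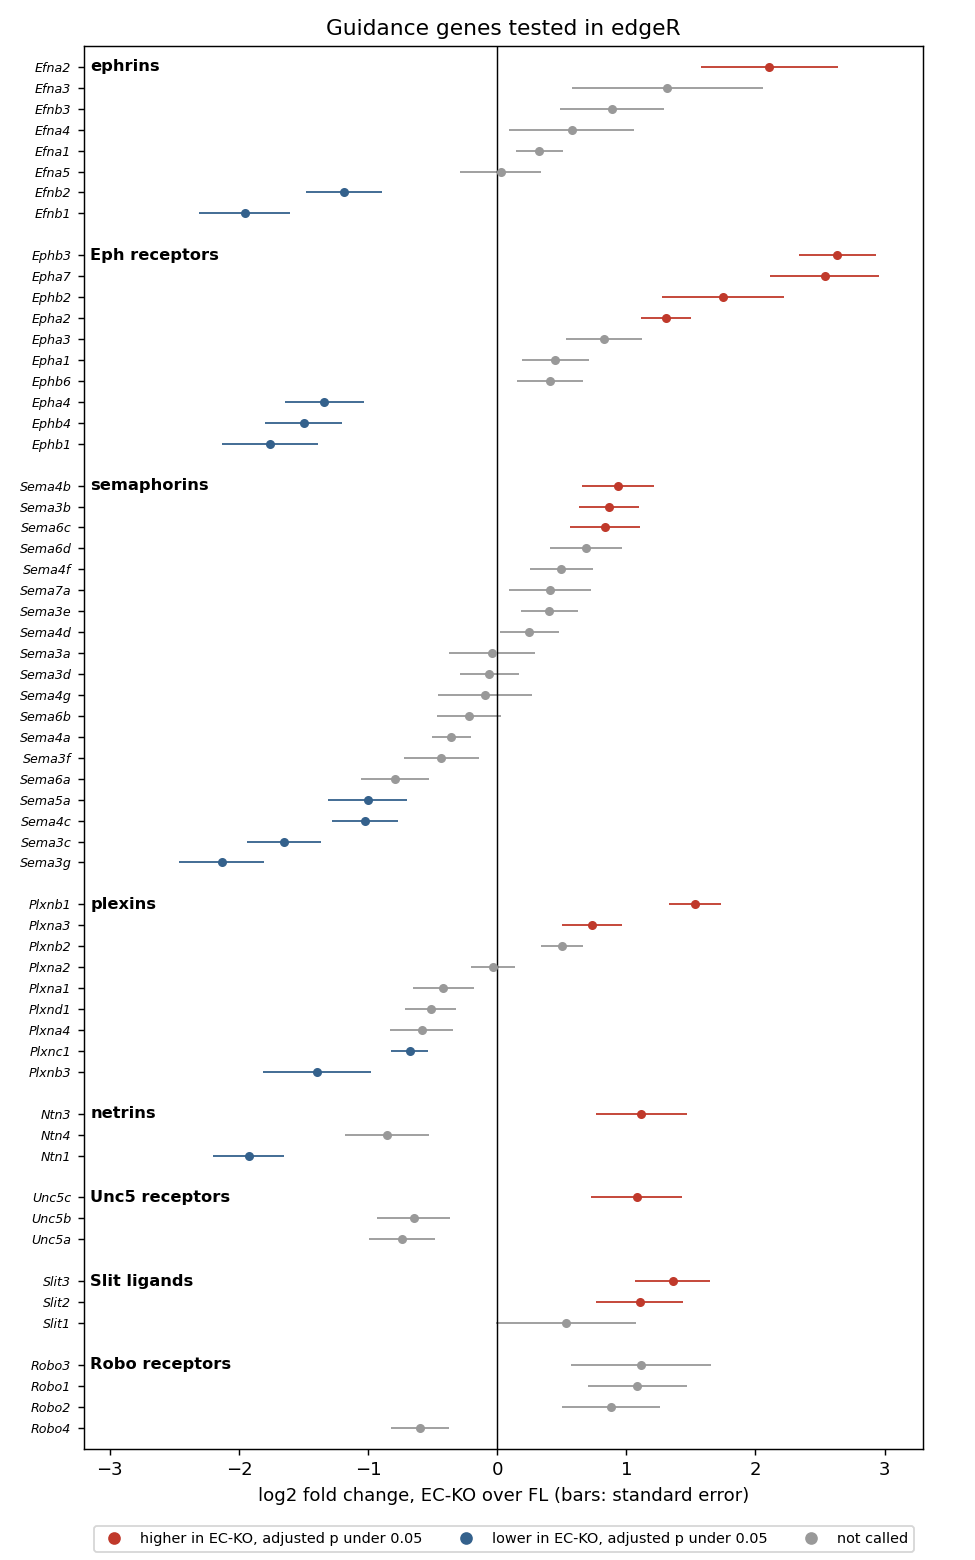
Log2 fold change of EC-KO over FL with its standard error (horizontal axis) for the 59 guidance genes tested, grouped by family; red marks genes called higher and blue genes called lower in EC-KO at an adjusted p under 0.05. Calls in both directions appear among ephrins, Eph receptors, semaphorins, plexins and netrins, while both called Slit genes are higher and no Robo gene is called.

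The counts changed when single libraries were left out. Without EC-KO 2 there were 22 members lower and 9 higher, and all genes then gave 19.5% lower and 15.7% higher. Values given below without EC-KO 2 come from this fit, which leaves out the knockout library with the highest pan-endothelial list. EC-KO 2 was also the highest EC-KO library in 52 of the 59 members tested. Leaving it out lowers the EC-KO mean of those members by construction. Falls called only in this fit therefore add no support for a difference. The number lower was 7 without FL 3, where 7.15% of all genes were lower. The number higher was 7 without FL 1, 5 without FL 2, 7 without FL 3 and 6 without EC-KO 1, in fits that called 10.7%, 6.63%, 6.06% and 7.87% of all genes higher. The 12 members called in each of the 6 fits that left out a library were Sema3c, Sema3g, Ntn1, Efnb1, Ephb4, Ephb1 and Plxnc1, which were lower, and Ephb3, Epha7, Epha2, Plxnb1 and Slit3, which were higher. When libraries were scaled to the pan-endothelial list, which moved the median of all genes to 1.13, 3 members were lower and 35 higher, against 1.52% and 56.5% of all genes. The 3 that were lower on this scale were Sema3g (-1.11, adjusted p = 0.00965), Efnb1 (-0.93, adjusted p = 0.0233) and Ntn1 (-0.90, adjusted p = 0.0165).

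**Figure D2:**
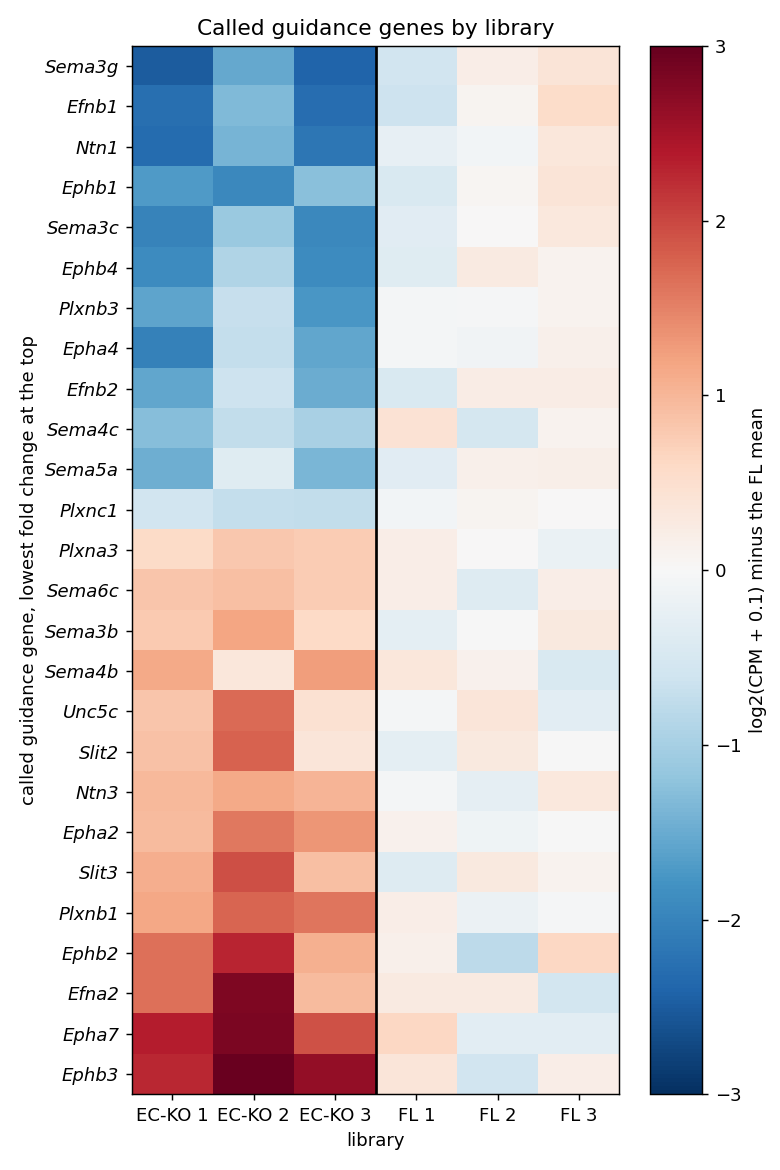
Colour shows log2(CPM + 0.1) minus the FL mean for the 26 called guidance genes (rows, lowest fold change at the top) in each library (columns, EC-KO left of FL). The 12 genes called lower are blue in all EC-KO libraries, and EC-KO 2 is paler than EC-KO 1 and EC-KO 3 for most of them and darker for most of the 14 called higher.

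The sequences before the gene starts are shown for the pairs of members with the largest falls and the largest rises among those called in every fit that left out a library, with an average log2 CPM of at least 3 and 1 RefSeq start. They are the 250 bases before the start, from RefSeq on GRCm38.p6, read 5′ to 3′ on the gene's strand. Capitals mark matches, on either strand, to 4 core motifs: CCGGAA of ETS factors, TATAA of the TATA box, ACAAT of SOX factors and GCGTG of the aryl hydrocarbon receptor with its partner ARNT. Sema3g and Efnb1 fell, and Ephb3 and Plxnb1 rose.
Sema3g, chr14:31217623-31217872 on the plus strand: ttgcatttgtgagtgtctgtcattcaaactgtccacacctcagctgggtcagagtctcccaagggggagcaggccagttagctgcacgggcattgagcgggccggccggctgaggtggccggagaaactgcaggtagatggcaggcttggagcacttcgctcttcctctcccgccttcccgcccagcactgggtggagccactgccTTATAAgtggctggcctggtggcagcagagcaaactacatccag
Efnb1, chrX:99135811-99136060 on the plus strand: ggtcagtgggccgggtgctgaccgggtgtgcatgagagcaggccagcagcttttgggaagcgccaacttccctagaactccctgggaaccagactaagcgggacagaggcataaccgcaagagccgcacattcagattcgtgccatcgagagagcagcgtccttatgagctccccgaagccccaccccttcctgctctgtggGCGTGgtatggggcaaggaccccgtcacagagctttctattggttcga
Ephb3, chr16:21204545-21204794 on the plus strand: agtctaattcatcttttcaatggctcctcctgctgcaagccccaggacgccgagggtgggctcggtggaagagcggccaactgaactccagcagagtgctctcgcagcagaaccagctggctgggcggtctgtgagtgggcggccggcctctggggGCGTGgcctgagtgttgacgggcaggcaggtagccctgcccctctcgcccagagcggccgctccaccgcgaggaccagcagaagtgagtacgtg
Plxnb1, chr9:109095186-109095435 on the plus strand: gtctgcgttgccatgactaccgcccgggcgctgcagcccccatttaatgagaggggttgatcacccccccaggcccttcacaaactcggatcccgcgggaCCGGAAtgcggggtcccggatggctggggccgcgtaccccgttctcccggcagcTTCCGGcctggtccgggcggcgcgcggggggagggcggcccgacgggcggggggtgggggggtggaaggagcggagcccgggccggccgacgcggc
The Sema3g window holds TATAA from 43 bases before the start, on both strands in overlap. The Efnb1 and Ephb3 windows each hold 1 GCGTG, 48 and 94 bases before the start, and the Plxnb1 window holds CCGGAA on both strands, 150 and 96 bases before it. Among the 11 members called lower that have a RefSeq window, 6 held GCGTG, 3 ACAAT, 2 TATAA and 0 CCGGAA in at least 1 window. Among the 13 called higher, 4 held GCGTG, 2 ACAAT, 1 TATAA and 3 CCGGAA. Of all 32851 windows, 28.2% held GCGTG, 27.7% ACAAT, 22.8% TATAA and 12% CCGGAA. Some genes have several windows, so counts over genes and shares over windows are not on the same base.

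Of the 8 ephrins, both abundant class B members fell and 1 class A member rose. Efnb2, which encodes the ephrin of arterial endothelium, was at 85.3, 164 and 90.2 CPM in EC-KO 1, 2 and 3, against 182, 295 and 295 CPM in FL 1, 2 and 3. Its highest EC-KO library, EC-KO 2, was just under its lowest FL library, FL 1. The log2 fold change was -1.19 ± 0.29 (SE), a level 2.27-fold lower (adjusted p = 0.0186). It was not called when EC-KO 1 or 3, or FL 2 or 3 was left out (adjusted p = 0.0591 to 0.0744), and beside the pan-endothelial list (median -0.90) it was at -0.18 once scaled to that list. Efnb1, the X-linked class B ephrin, was at 32.9, 63.0 and 32.4 CPM in EC-KO 1, 2 and 3, against 102, 166 and 230.2 CPM in FL 1, 2 and 3. The groups were well apart, with FL libraries spread over more than the EC-KO ones, and the fall was 3.88-fold (log2 fold change -1.96 ± 0.35, adjusted p = 0.00500).

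No class A ephrin fell. Efna1, a ligand of EphA2 and the most abundant of the class, was at 40.9, 59.5 and 42.8 CPM in EC-KO 1, 2 and 3, against 37.7, 35.0 and 41.4 CPM in FL 1, 2 and 3. The groups overlapped, with EC-KO 2 the highest of the 6 libraries, and the difference did not pass the test (0.33 ± 0.19, adjusted p = 0.217). Efna2 rose at a low level, with 2.31, 5.30 and 1.39 CPM in EC-KO 1, 2 and 3, against 0.834, 0.825 and 0.426 CPM in FL 1, 2 and 3 (log2 fold change 2.11 ± 0.53, adjusted p = 0.0199). Its call was lost when FL 2 or 3 was left out (adjusted p = 0.0549 to 0.0820), and its log2 fold change was 1.38 without EC-KO 2. Efna3, Efna4, Efna5 and Efnb3 were between 0.03 and 1.32 on the log2 scale, and none was called.

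Among the 10 Eph receptors tested, 4 rose and 3 fell. Ephb3, known in the mouse intestine for sorting epithelial cells along the crypt, had the largest rise of all members, at 16.4, 26.8 and 21.3 CPM in EC-KO 1, 2 and 3, against 4.32, 2.23 and 3.87 CPM in FL 1, 2 and 3. Every EC-KO library was several times above every FL library, and the mean difference was 6.2-fold (log2 fold change 2.63 ± 0.30, adjusted p = 0.000824). Epha2, the receptor of ephrin-A1 in epithelium and endothelium, was at 195, 299 and 252 CPM in EC-KO 1, 2 and 3, against 110.4, 92.0 and 99.2 CPM in FL 1, 2 and 3. The groups were clear of each other and the rise was 2.47-fold (log2 fold change 1.31 ± 0.19, adjusted p = 0.00222). In the same libraries epithelial markers had a median log2 fold change of 2.35.

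Epha7 and Ephb2 rose at levels of a few CPM or less. Epha7 was at 3.26, 4.55 and 2.35 CPM in EC-KO 1, 2 and 3, against 0.910, 0.428 and 0.426 CPM in FL 1, 2 and 3 (log2 fold change 2.54 ± 0.42, adjusted p = 0.00371), without overlap of the groups. Ephb2 was at 2.71, 4.30 and 1.79 CPM in EC-KO 1, 2 and 3, against 0.910, 0.428 and 1.28 CPM in FL 1, 2 and 3 (1.75 ± 0.47, adjusted p = 0.0256), and its call was lost when EC-KO 1 or 2, or FL 1 or 2 was left out (adjusted p = 0.0561 to 0.0785), with 1.34 without EC-KO 2.

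Ephb4, the receptor of ephrin-B2 on venous endothelium, fell, as its ligand did. It was at 50.2, 98.9 and 49.9 CPM in EC-KO 1, 2 and 3, against 144, 221 and 197 CPM in FL 1, 2 and 3. Levels in EC-KO 1 and EC-KO 3 were nearly equal, EC-KO 2 was about as far from them as from FL 1, and all 3 lay below FL (log2 fold change -1.5 ± 0.29, adjusted p = 0.00731). Epha4, a receptor that binds ephrins of both classes, was at 8.52, 21.2 and 11.8 CPM in EC-KO 1, 2 and 3, against 33.6, 32.4 and 38.9 CPM in FL 1, 2 and 3 (-1.34 ± 0.30, adjusted p = 0.0132), and it was not called when FL 3 was left out (adjusted p = 0.0501). Ephb1 was at 0.722, 0.596 and 1.02 CPM in EC-KO 1, 2 and 3, against 1.86, 2.66 and 3.41 CPM in FL 1, 2 and 3 (-1.76 ± 0.37, adjusted p = 0.00937). Scaled to the pan-endothelial list, Ephb4 was at -0.51, Epha4 at -0.37 and Ephb1 at -0.58, and none of these was called. The remaining tested receptors, Epha1, Epha3 and Ephb6, were at 0.45, 0.83 and 0.41, and they did not pass the test.

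**Figure D3:**
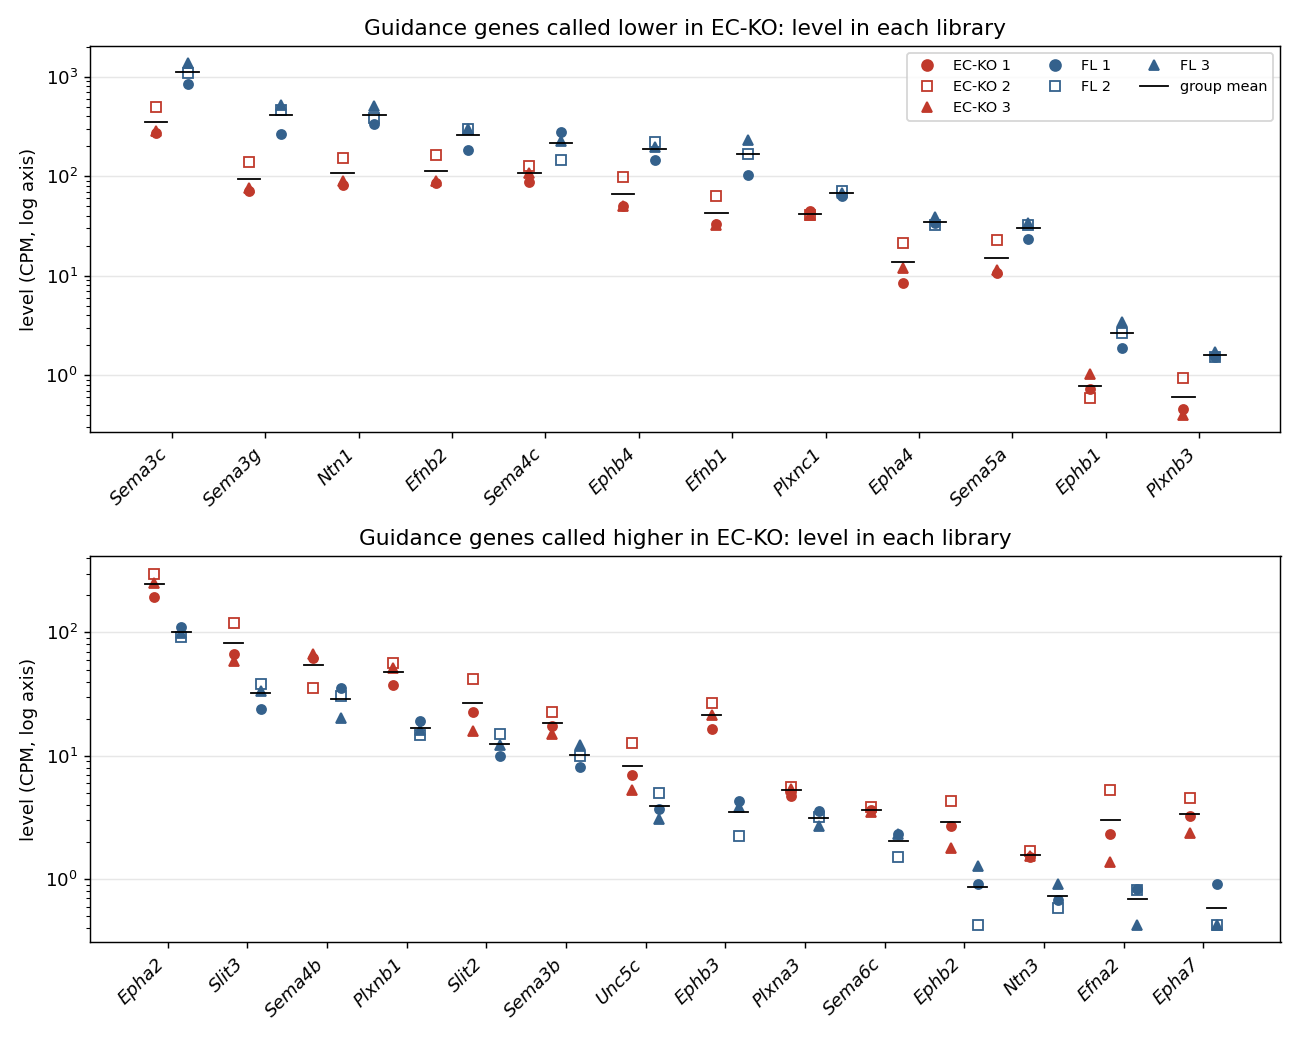
Level in CPM (log axis) of each called guidance gene in every library, EC-KO (red) left of FL (blue), with the group mean as a black line; circles, open squares and triangles are replicates 1, 2 and 3. No called gene has overlapping groups, which the call itself favours. The open red square of EC-KO 2 is the highest EC-KO point in 23 of the 26 genes, and EC-KO 2 was highest in 44.1% of all genes tested.

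Of the 20 semaphorins 19 were tested, and 4 fell and 3 rose. The falls included the pair of class 3 semaphorins with the highest level per length in FL. Sema3c, which binds neuropilins with plexins and is required in the mouse for the cardiac outflow tract, was at 268, 499 and 282 CPM in EC-KO 1, 2 and 3, against 850.4, 1093 and 1352 CPM in FL 1, 2 and 3. Even EC-KO 2 was well under FL 1, and the level was 3.14-fold lower (log2 fold change -1.65 ± 0.29, adjusted p = 0.00438). Sema3g, a class 3 semaphorin known from arterial endothelium, had the largest fall of all members. It was at 70.2, 137 and 75.8 CPM in EC-KO 1, 2 and 3, against 267, 457 and 520.5 CPM in FL 1, 2 and 3, a level 4.39-fold lower (log2 fold change -2.13 ± 0.33, adjusted p = 0.00265). Of 8 arterial markers in the same libraries, 5 fell and 0 rose, with a median of -0.86. That fall was not particular to arterial markers, as the pan-endothelial median was -0.90. Of 7 venous markers 2 fell and 0 rose (median -1.22), and of 7 lymphatic markers 5 fell and 0 rose (median -1.53).

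Of the other class 3 members, Sema3b rose and 4 did not pass the test. Sema3f, the neuropilin-2 ligand, was at 143, 275 and 141 CPM in EC-KO 1, 2 and 3, against 193, 259 and 303 CPM in FL 1, 2 and 3. EC-KO 2 lay inside the FL range while EC-KO 1 and EC-KO 3 lay below it, and the difference was -0.43 ± 0.29 (adjusted p = 0.292), or -0.86 (adjusted p = 0.00954) without EC-KO 2. Sema3e, which binds plexin-D1 without a neuropilin, was at 0.41 (adjusted p = 0.195) with overlapping groups. Sema3b rose, with 17.3, 22.8 and 15.0 CPM in EC-KO 1, 2 and 3, against 8.11, 9.90 and 12.2 CPM in FL 1, 2 and 3 (log2 fold change 0.87 ± 0.23, adjusted p = 0.0238). This call was lost when EC-KO 1, or FL 1 or 2 was left out (adjusted p = 0.0600 to 0.0852). Sema3a and Sema3d were at -0.04 and -0.06, with levels that overlapped.

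Of the 12 membrane-bound semaphorins tested, Sema4c and Sema5a fell and Sema4b and Sema6c rose. Sema4c, a ligand of plexin-B2, was at 86.6, 126 and 107 CPM in EC-KO 1, 2 and 3, against 280.3, 144 and 225 CPM in FL 1, 2 and 3. The lowest FL library, FL 2, was close to the highest EC-KO library, and the fall (-1.02 ± 0.25, adjusted p = 0.0186) was not called when EC-KO 1, or FL 3 was left out (adjusted p = 0.0601 to 0.0760). Sema5a, which carries thrombospondin repeats, was at 10.7, 22.8 and 11.3 CPM in EC-KO 1, 2 and 3, against 23.5, 32.6 and 33.7 CPM in FL 1, 2 and 3 (-1.0 ± 0.30, adjusted p = 0.0381), with no call when EC-KO 1 or 3, or FL 2 or 3 was left out (adjusted p = 0.108 to 0.128). Scaled to the pan-endothelial list Sema4c was at 0.02 and Sema5a at -0.02, and neither was called on that scale.

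Of the risen members, Sema4b was at 61.9, 35.3 and 66.9 CPM in EC-KO 1, 2 and 3, against 35.2, 30.3 and 20.3 CPM in FL 1, 2 and 3, and here EC-KO 2 was the lowest of the EC-KO libraries and almost level with FL 1 (0.93 ± 0.28, adjusted p = 0.0372). Its call was lost when EC-KO 1 or 3, or FL 2 or 3 was left out (adjusted p = 0.0953 to 0.139). Sema6c was at 3.64, 3.86 and 3.49 CPM in EC-KO 1, 2 and 3, against 2.31, 1.53 and 2.31 CPM in FL 1, 2 and 3 (0.84 ± 0.27, adjusted p = 0.0483), and it was not called when any 1 library was left out (adjusted p = 0.0751 to 0.162), nor without the filter on low counts (adjusted p = 0.0961).

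Sema7a and Sema4d, among the 4 members with the highest level per length in EC-KO, did not pass the test. Sema7a, a lipid-anchored ligand of plexin-C1 and of beta-1 integrins, was at 264, 534 and 227 CPM in EC-KO 1, 2 and 3, against 201, 282 and 289 CPM in FL 1, 2 and 3. EC-KO 2 was far above the other libraries, which overlapped, and the difference of 0.41 ± 0.32 (adjusted p = 0.366) was -0.10 without it. Sema4d, the plexin-B1 ligand first known from T cells, was at 395, 249 and 428 CPM in EC-KO 1, 2 and 3, against 255, 341 and 307 CPM in FL 1, 2 and 3, with EC-KO 2 the lowest of the 6 libraries (0.25 ± 0.23, adjusted p = 0.449). Sema6a, a ligand of plexin-A2 and plexin-A4, was at 47.9, 96.9 and 53.7 CPM in EC-KO 1, 2 and 3, against 104, 111 and 129 CPM in FL 1, 2 and 3, with EC-KO 2 just below FL 1 and no overlap. Its value was -0.79 ± 0.26 (adjusted p = 0.0522) and -1.20 without EC-KO 2 (adjusted p = 0.000726). Sema4a was called without EC-KO 2 as well (-0.43, adjusted p = 0.0396), against -0.36 (adjusted p = 0.109) with all libraries. Sema4f, Sema4g, Sema6b and Sema6d were between -0.22 and 0.68 on the log2 scale, and none was called.

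Of the 9 plexins, 2 rose and 2 fell. Plxnb1, the receptor of Sema4d, was at 37.3, 56.2 and 51.1 CPM in EC-KO 1, 2 and 3, against 19.0, 14.7 and 16.3 CPM in FL 1, 2 and 3. The lowest EC-KO library was about 2 times the highest FL library, and the rise was 2.89-fold (log2 fold change 1.53 ± 0.20, adjusted p = 0.00138). Plxnb2, the receptor of Sema4c, was at 112, 154 and 126 CPM in EC-KO 1, 2 and 3, against 87.7, 97.0 and 91.9 CPM in FL 1, 2 and 3, with groups that did not overlap and an adjusted p on the threshold (0.50 ± 0.17, adjusted p = 0.0503, not called). Plxnc1, the receptor of Sema7a, was at 44.7, 40.9 and 40.3 CPM in EC-KO 1, 2 and 3, against 63.3, 70.5 and 67.5 CPM in FL 1, 2 and 3. Replicates lay closer together here than for most members, and the small fall was called (-0.68 ± 0.14, adjusted p = 0.00950). On the pan-endothelial scale Plxnc1 was at 0.44, in the other direction, and not called (adjusted p = 0.264).

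The calls of the low-level plexins were close to the threshold and were lost in most fits that left out a library. Plxna3, which serves Sema3f together with neuropilin-2, was at 4.74, 5.61 and 5.41 CPM in EC-KO 1, 2 and 3, against 3.60, 3.18 and 2.71 CPM in FL 1, 2 and 3 (0.73 ± 0.23, adjusted p = 0.0445) and was not called when any 1 library was left out (adjusted p = 0.0637 to 0.178), nor without the filter on low counts (adjusted p = 0.101). Plxnb3, a receptor of Sema5a, was at 0.462, 0.941 and 0.402 CPM in EC-KO 1, 2 and 3, against 1.52, 1.53 and 1.71 CPM in FL 1, 2 and 3 (-1.39 ± 0.42, adjusted p = 0.0373) and was not called when EC-KO 1 or 3, or FL 1, 2 or 3 was left out (adjusted p = 0.0645 to 0.123). Both are X-linked genes with levels of a few CPM or less.

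The remaining plexins did not pass the test. Plxnd1, the vessel-enriched plexin, was at 108, 172 and 125 CPM in EC-KO 1, 2 and 3, against 189, 212 and 179 CPM in FL 1, 2 and 3. All EC-KO libraries were below all FL libraries, with EC-KO 2 close to FL 3, and the difference was -0.52 ± 0.20 (adjusted p = 0.0821), or -0.76 without EC-KO 2 (adjusted p = 0.00483). Plxna2 was at 117, 165 and 138 CPM in EC-KO 1, 2 and 3, against 137, 149.7 and 144 CPM in FL 1, 2 and 3 (-0.04 ± 0.17, adjusted p = 0.897), so its levels interleaved. Plxna1 and Plxna4 were at -0.42 and -0.59 and were called lower without EC-KO 2 (-0.69, adjusted p = 0.0247, and -0.89, adjusted p = 0.00759). The neuropilins, which are co-receptors of class 3 semaphorins and not members by name, fell as well. Nrp1 was at 101, 193 and 94.3 CPM in EC-KO 1, 2 and 3, against 260.4, 335 and 356 CPM in FL 1, 2 and 3 (-1.30 ± 0.29, adjusted p = 0.0116), and Nrp2 at 50.8, 83.7 and 68.7 CPM in EC-KO 1, 2 and 3, against 161, 115 and 95.2 CPM in FL 1, 2 and 3 (-0.87 ± 0.25, adjusted p = 0.0302). Nrp1 was not called when EC-KO 1 was left out (adjusted p = 0.0520), nor Nrp2 when EC-KO 1 or 3, or FL 1 or 2 was left out (adjusted p = 0.0684 to 0.106).

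Of the 3 netrins tested, Ntn1 fell and Ntn3 rose. Ntn1, the founding netrin and a ligand of Unc5 receptors, was at 81.4, 152 and 88.5 CPM in EC-KO 1, 2 and 3, against 337, 379 and 505 CPM in FL 1, 2 and 3. FL libraries exceeded every EC-KO library by more than 2-fold, and the fall was 3.8-fold (log2 fold change -1.92 ± 0.28, adjusted p = 0.00196). Ntn4, which binds laminin networks in basement membranes, was at 33.1, 67.0 and 27.4 CPM in EC-KO 1, 2 and 3, against 61.2, 76.4 and 92.9 CPM in FL 1, 2 and 3. EC-KO 2 lay inside the FL range, and the difference of -0.85 ± 0.32 (adjusted p = 0.0781) was -1.38 without it (adjusted p = 0.00126). Ntn3 was at 1.5, 1.69 and 1.55 CPM in EC-KO 1, 2 and 3, against 0.682, 0.581 and 0.914 CPM in FL 1, 2 and 3 (1.12 ± 0.35, adjusted p = 0.0425), a low-level rise that was not called when any 1 library was left out (adjusted p = 0.0740 to 0.138), nor without the filter on low counts (adjusted p = 0.0949), and its exons share 89 bases with Tbc1d24 on the same strand.

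Of the Unc5 receptors, Unc5b, the endothelial one, was at 27.6, 65.3 and 39.6 CPM in EC-KO 1, 2 and 3, against 62.7, 76.1 and 68.7 CPM in FL 1, 2 and 3. EC-KO 2 was above FL 1 while the other EC-KO libraries were below all of FL. The value was -0.65 ± 0.28 (adjusted p = 0.117), and -1.07 without EC-KO 2 (adjusted p = 0.00274), where 19.5% of all genes were lower. Unc5c was at 6.99, 12.7 and 5.29 CPM in EC-KO 1, 2 and 3, against 3.71, 5.01 and 3.08 CPM in FL 1, 2 and 3 and was called higher (1.08 ± 0.35, adjusted p = 0.0484). That call was lost when EC-KO 1 or 2, or FL 1, 2 or 3 was left out (adjusted p = 0.0692 to 0.174), with a log2 fold change of 0.61 without EC-KO 2, and also with limma-voom (adjusted p = 0.0656). Unc5a did not pass the test (-0.74, adjusted p = 0.0616), and it was called lower when EC-KO 2, or FL 1 was left out (adjusted p = 0.0299 to 0.0356).

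Of the 3 Slit ligands, Slit2 and Slit3 rose. Slit3 was at 67.3, 120.2 and 58.8 CPM in EC-KO 1, 2 and 3, against 23.8, 38.5 and 33.7 CPM in FL 1, 2 and 3. EC-KO 2 was about 2 times the other EC-KO libraries, and all 3 exceeded FL (2.56-fold, log2 fold change 1.36 ± 0.29, adjusted p = 0.0106). Slit2 was at 22.5, 41.7 and 15.9 CPM in EC-KO 1, 2 and 3, against 9.97, 15.1 and 12.2 CPM in FL 1, 2 and 3, where EC-KO 3 was barely above FL 2 (1.10 ± 0.34, adjusted p = 0.0399). This call was lost when EC-KO 1 or 2, or FL 1, 2 or 3 was left out (adjusted p = 0.0674 to 0.126), and the value without EC-KO 2 was 0.60. With limma-voom Slit2 was not called either (adjusted p = 0.0585). The fibroblast marker list was at 1.70, 2.36 and 0.96 relative to FL in EC-KO 1, 2 and 3, the same order of libraries as Slit2, Slit3 and Unc5c. The epithelial list (2.28, 2.88 and 2.21) and the pan-endothelial list (-1.34, -0.46 and -1.38) had that order too, and the part of these lists in the rises was not tested. Slit1 was under 1 CPM in every library and was not called (0.53, adjusted p = 0.498).

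No Robo receptor was called. An unadjusted p under 0.05 was found for 3 of the 4, and for 7540 of the 18562 genes tested. Robo4, the endothelial Robo, was at 135, 238 and 156 CPM in EC-KO 1, 2 and 3, against 266, 243 and 290.3 CPM in FL 1, 2 and 3. EC-KO 2 was just under FL 2, and the others were clearly lower (-0.60 ± 0.22, adjusted p = 0.0766). Without EC-KO 2 it was at -0.91 (adjusted p = 0.00241), in a fit that called 19.5% of all genes lower. Scaled to the pan-endothelial list, Robo4 had the other sign and was not called. Robo1, the Slit receptor of many tissues, was at 6.27, 13.6 and 4.61 CPM in EC-KO 1, 2 and 3, against 3.45, 4.43 and 3.65 CPM in FL 1, 2 and 3 (1.08 ± 0.38, adjusted p = 0.0645), and without EC-KO 3 it was called higher (1.36, adjusted p = 0.0297). Robo2 and Robo3 were at 0.88 and 1.11, with overlapping groups.

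Levels per length (RPKM, CPM per kilobase of exon) allow members to be compared with each other. In EC-KO the highest were Sema7a with 104 ± 51.0 RPKM (SD), Epha2 with 53.2 ± 11.1, Sema3c with 49.0 ± 18.1 and Sema4d with 46.5 ± 12.4 RPKM. In FL the highest were Sema3c with 154 ± 35.2 RPKM, Sema3g with 91.3 ± 29.0, Sema7a with 78.0 ± 14.9 and Ntn1 with 64.8 ± 13.9 RPKM. In FL Sema3c was above Sema3g by more than either SD. The other neighbours in these orders differed by less than the larger of their SDs. Epha2 made up 65.6% to 73.3% of the summed Eph receptor level per length in EC-KO libraries and 26.2% to 37.9% in FL libraries, while Ephb4 made up 14.6% to 21.9% in EC-KO and 49.8% to 63.5% in FL. Efna1 was the leading ephrin in EC-KO, with 40.6% to 48.3% of the summed level, against 16.8% to 26.2% in FL.

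**Figure D4:**
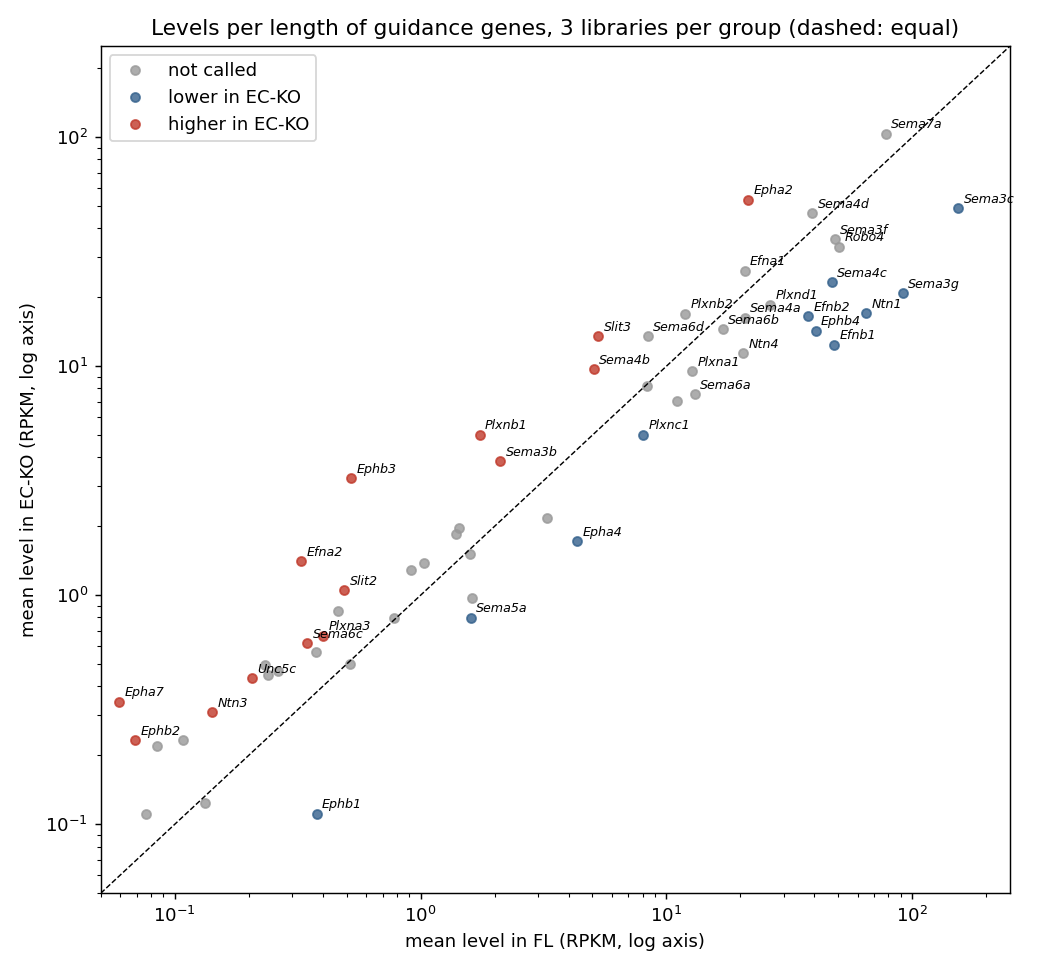
Mean level per length (RPKM, log axes) in EC-KO (vertical) against FL (horizontal) for 58 of the 59 tested guidance genes; the dashed line marks equal levels. Genes called lower (blue) include the most abundant members in FL, such as Sema3c, Sema3g and Ntn1, and Epha2 is the only gene called higher (red) with a mean above 20 RPKM in both groups.

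Ratios between members within a library do not depend on library scaling. The ratio of Efnb2 to Ephb4 per length was 1.15, 1.13 and 1.22 in EC-KO 1, 2 and 3, against 0.858, 0.904 and 1.01 in FL 1, 2 and 3, slightly higher in every EC-KO library. Epha2 over its ligand Efna1 was 1.86, 1.97 and 2.31 in EC-KO 1, 2 and 3, against 1.15, 1.03 and 0.938 in FL 1, 2 and 3. Ephb3 over Ephb4 was 0.228, 0.19 and 0.298 in EC-KO 1, 2 and 3, against 0.021, 0.00704 and 0.0137 in FL 1, 2 and 3, the widest separation of the 6 ratios computed. Ntn1 over Unc5b was 2.94, 2.32 and 2.23 in EC-KO 1, 2 and 3, against 5.35, 4.97 and 7.32 in FL 1, 2 and 3, and Sema3c over Plxnd1 was 2.53, 2.97 and 2.3 in EC-KO 1, 2 and 3, against 4.61, 5.27 and 7.72 in FL 1, 2 and 3. Slit3 over Robo4 was 0.437, 0.442 and 0.33 in EC-KO 1, 2 and 3, against 0.0783, 0.138 and 0.101 in FL 1, 2 and 3. The groups did not overlap in any of the 6, but these genes had been chosen with their levels known. The separation therefore adds no support beyond the levels themselves, and no test is given. The part of cell composition in these ratios was not tested.

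The other genes of these pathways were a list of 90 co-receptors, modulators and cytoplasmic effectors, of which 82 were tested, 15 fell and 9 rose (18.3% and 11.0%, beside 13.5% and 13.5% of all tested genes). Of 16 co-receptors and other receptors 5 fell and 4 rose, of 14 related ligands and modulators 2 fell and 2 rose, and of 52 cytoplasmic effectors 8 fell and 3 rose. Itga1, the alpha-1 integrin that pairs with beta-1 and binds collagen and Sema7a, was at 123, 228 and 158 CPM in EC-KO 1, 2 and 3, against 437, 564 and 599 CPM in FL 1, 2 and 3 (-1.65 ± 0.25, adjusted p = 0.00240). Adam10, the protease that sheds ephrins and Eph receptors, was at 58.2, 68.0 and 57.2 CPM in EC-KO 1, 2 and 3, against 131, 163 and 158 CPM in FL 1, 2 and 3 (-1.30 ± 0.16, adjusted p = 0.00109). Both fell in all EC-KO libraries without overlap.

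Flrt3, a membrane protein that binds Unc5 receptors, and Nck1, an adaptor that links receptors to actin, also fell (log2 fold changes -1.35 ± 0.26 and -0.88 ± 0.17, adjusted p = 0.00691 and 0.00724). Among the rises, Ptpn13, a phosphatase that binds the tail of ephrin-B proteins, was at 41.3, 46.5 and 62.2 CPM in EC-KO 1, 2 and 3, against 18.2, 17.3 and 13.1 CPM in FL 1, 2 and 3 (1.63 ± 0.21, adjusted p = 0.00133). Ngef, the exchange factor ephexin downstream of EphA receptors, was at 5.52, 7.71 and 7.17 CPM in EC-KO 1, 2 and 3, against 2.16, 1.07 and 1.77 CPM in FL 1, 2 and 3 (2.03 ± 0.31, adjusted p = 0.00251). Sdc1, a heparan sulfate proteoglycan of epithelium, rose by 1.31 on the log2 scale (adjusted p = 0.00691), and Nrcam, an adhesion partner of neuropilins, by 1.62 (adjusted p = 0.0104). The falls numbered 26 without EC-KO 2, 9 without FL 2, FL 3 or EC-KO 3 and 6 without EC-KO 1, and the rises 4 without FL 2 and 5 without FL 3, while scaling to the pan-endothelial list gave 0 falls and 51 rises. Of all genes, 19.5% were lower without EC-KO 2, 6.81% with EC-KO 1 left out, 8.38% with EC-KO 3 left out, and 7.01% and 7.15% when FL 2 or FL 3 was omitted. The shares higher in the last pair of fits were 6.63% and 6.06%.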

How the data were processed

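The values are counts of reads per gene, deposited by the authors as whole numbers with gene coordinates and lengths, the form of featureCounts output per the file headers. Per the submitters' processing notes, STAR 2.7.10b, featureCounts 2.0.3 and mm10 were used, with no settings or roles. The annotation release and the use of strand are not stated. Gene symbols were looked up by Ensembl identifier in GENCODE M21, which named 51948 of 56941 genes. Another 2 per-sample columns correspond to no labelled sample and were not used. RPKM values use the lengths in the table. Coordinates are printed for RefSeq sequences alone (GRCm38.p6), in which 57 of the 66 members had an entry. Gene positions in the count table differ from these for the genes whose windows are shown. Sema3g, for instance, starts at 30939817 on chromosome 14 there, while its RefSeq window ends at 31217872. The build behind the counts was therefore not settled, although the notes name mm10.

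Low-count genes were removed with filterByExpr, which kept 18562 of the 33412 genes with any count. EC-KO was then tested against FL with edgeR 4.0.16 (R 4.3.3), using TMM scaling and the robust quasi-likelihood F test. P-values are two-sided, adjusted by Benjamini-Hochberg over every gene kept, and called under 0.05. Log2 fold changes put EC-KO over FL, and each SE was derived from the F statistic and its fold change. The biological coefficient of variation was 25.5%, and the procedure was tested on simulated counts.

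The members, partner lists, marker lists and alternatives were chosen with earlier results of these data known. Marker lists hold no member. Genes were named by a rule: all called members with an average log2 CPM of at least 0, 24 members listed by role (13 of them not called), both neuropilins, and per direction the 4 called partners of smallest p. Genes outside it were named once their values were known. The fit was repeated with RLE scaling, library size alone, pan-endothelial scaling, no filter, at least 1 CPM in 3 libraries, the non-robust fit, DESeq2 1.42.0, limma-voom (limma 3.58.1), a replicate block, each library omitted in turn, and an adjusted p under 0.01. Figures were drawn in matplotlib 3.10.9.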

Additional observations from a re-analysis of the deposited data

How the results depend on the processing

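The numbers of guidance genes called lower and higher were 7 to 22 and 5 to 11 when 1 library was left out, and those of pathway partners 6 to 26 and 4 to 11. Those fits called 6.81% to 19.5% of all genes lower and 6.06% to 15.7% higher. A threshold of 0.01 left 7 guidance genes lower and 4 higher, and 4 partners lower and 3 higher. The shares of all genes at that threshold are not given here. Scaling to the pan-endothelial list gave 3 guidance genes lower and 35 higher and 0 partners lower and 51 higher. Of all genes, 1.52% were lower and 56.5% higher on that scale. Without a scaling factor 14 partners were higher, beside 16% of all genes, and the median of all genes was 0.12. The labels state no pairing by replicate number. Same-numbered libraries' deviations from their group means correlated at 0.05, 0.07 and -0.18 over genes. With 3 libraries per group these correlations cannot settle whether the samples were paired. With the replicate number as a block, 12 guidance genes were lower and 9 higher, beside 10.5% and 10.2% of all genes. In that fit Ephb2, Ntn3, Plxna3, Plxnb3, Sema4b, Sema6c and Nrp2 were not called and Sema6a was. No other alternative moved a count of guidance genes by more than 1.5 times. Of the named members, the sign changed in Sema7a without EC-KO 2 (-0.10 to 0.62 across libraries left out) and in Plxna2, at 0.045 without a scaling factor and -0.20 to 0.076 with 1 library left out. Scaling to the pan-endothelial list also turned Plxnc1 (0.44), Sema4c (0.02), Robo4 (0.42), Unc5b (0.33), Ntn4 (0.12), Plxnd1 (0.51), Sema3f (0.57) and Sema6a (0.20), none called there, and Plxna2 (1.02, called higher). Signs of partners under that scaling are not given. The causes were not tested.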

Other observations

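Among members the filter left out, no library exceeded 0.520 CPM. They were Epha5, Epha6, Epha8, Epha10, Unc5d, Ntn5 and Sema5b, and of these Epha8 and Ntn5 had every EC-KO library above every FL library, at 18 counts or fewer. They are named here after their values were seen.

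In all 18 members shared exon bases with another gene of the table, 7 of them called members, mostly on the opposite strand. Epha1 shared 236 bases with Zyx, a gene with 46522 counts over the 6 libraries against 1282 for Epha1. Without a stated strand setting, reads from such a stretch cannot be assigned with certainty. Ephb4 shared 33 bases with Zan, which had 291 counts against 24028.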
